A study of Mus musculus with 8 samples.

Results

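Pituitary adenylate cyclase-activating polypeptide (PACAP, encoded by Adcyap1), vasoactive intestinal peptide (VIP, encoded by Vip) and their receptors PAC1R (Adcyap1r1), VPAC1 (Vipr1) and VPAC2 (Vipr2) were examined in mouse paw skin injected with PACAP or vehicle. The members were the array probes named for these 5 genes, out of 29608 gene names on the array, and they comprised 8 of 39429 probes. PACAP and VIP are related peptides of the secretin family that are released from nerve fibres, and in skin VIP is known from the cholinergic fibres around sweat glands. PAC1R binds PACAP far more strongly than VIP, whereas VPAC1 and VPAC2 bind both peptides. All these receptors couple to Gs, which raises cyclic AMP, and PAC1R can also signal through phospholipase C and calcium.

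WT animals were C57BL/6 mice, and PAC1R KO animals were Adcyap1r1 -/- mice, males aged 9 to 10 weeks in both cases. Under anaesthesia, 5 µL of saline with 0.1% BSA, either alone (vehicle) or with PACAP at 1e-07 mol/L, was injected into the footpad, and palm skin was taken after 30 or 60 min. Each genotype and time gave 1 vehicle and 1 PACAP RNA sample, hybridised together on 2 arrays with the dyes exchanged, so that 8 arrays held 8 RNA samples in 4 pairs. The dye exchange repeats the same RNA and gives no spread between animals, and while 6 mice of each genotype were injected with PACAP, how many contributed to each RNA is not given in the sources used here. The 4 arrays of one genotype shared a slide, and differences between genotypes and between slides cannot be told apart. All 7 keratinocyte markers and all 11 eccrine gland markers were well above background in each RNA sample, and so were all 8 skeletal muscle markers. Once array 2 was turned to the direction of array 1, ratios of the paired arrays correlated negatively across probes, with r from -0.44 to -0.09, so part of each ratio followed the dye, which cancels only in the mean of both arrays. In skin, fewer cells of a type and less RNA per cell cannot be told apart.

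The probes are introduced first because several genes were read by more than 1 of them and the probes of a gene did not behave alike. The first 30 of the 60 bases of each receptor probe, with coordinates of the whole probe in mm9 as the array files give them, were as follows.
Adcyap1r1 A_51_P259603, chr6:55450829-55450888: caagctctgaaaacaacaccgctgtgtgct
Vipr1 A_55_P2064351, chr9:121581964-121582023: ccagttagcagtcctgattccgtcttgaca
Vipr1 A_52_P227279, chr9:121579630-121579689: gggcaaggcatcttatgcctccctccatct
Vipr2 A_51_P342773, chr12:117384455-117384514: acatgtgaacacaagcagtcactgagtgca
Vipr2 A_51_P473205, chr12:117382899-117382958: tcctcatgtgtaacttgattgaaacaccaa
Vipr2 A_55_P2033676, chr12:117333207-117333266: aaactgcactagcgatggatggtcagagac
The third Vipr2 probe lay far upstream of the other two on the chromosome. No transcript annotation was used here, so the exon or UTR that each probe reads is not stated. Which part of Adcyap1r1 the KO mice lack is also not given in the sources used here, and the Adcyap1r1 probe therefore does not check the genotype labels.

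Signal differed in kind between the probes. The Adcyap1, Adcyap1r1, both Vipr1 probes and Vipr2 A_51_P342773 were well above background in all 16 readings (8 RNA samples, each read in both dyes). The Vip probe was well above background in 3 of 16 readings, all of them red and all at 60 min. Vipr2 A_55_P2033676 passed in the 8 red readings and in 0 green ones, and Vipr2 A_51_P473205 passed in 1 of 16. Vip and Vipr2 A_51_P473205 were too dim for the fits across probes, and no fold is given for them.

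**Figure D1:**
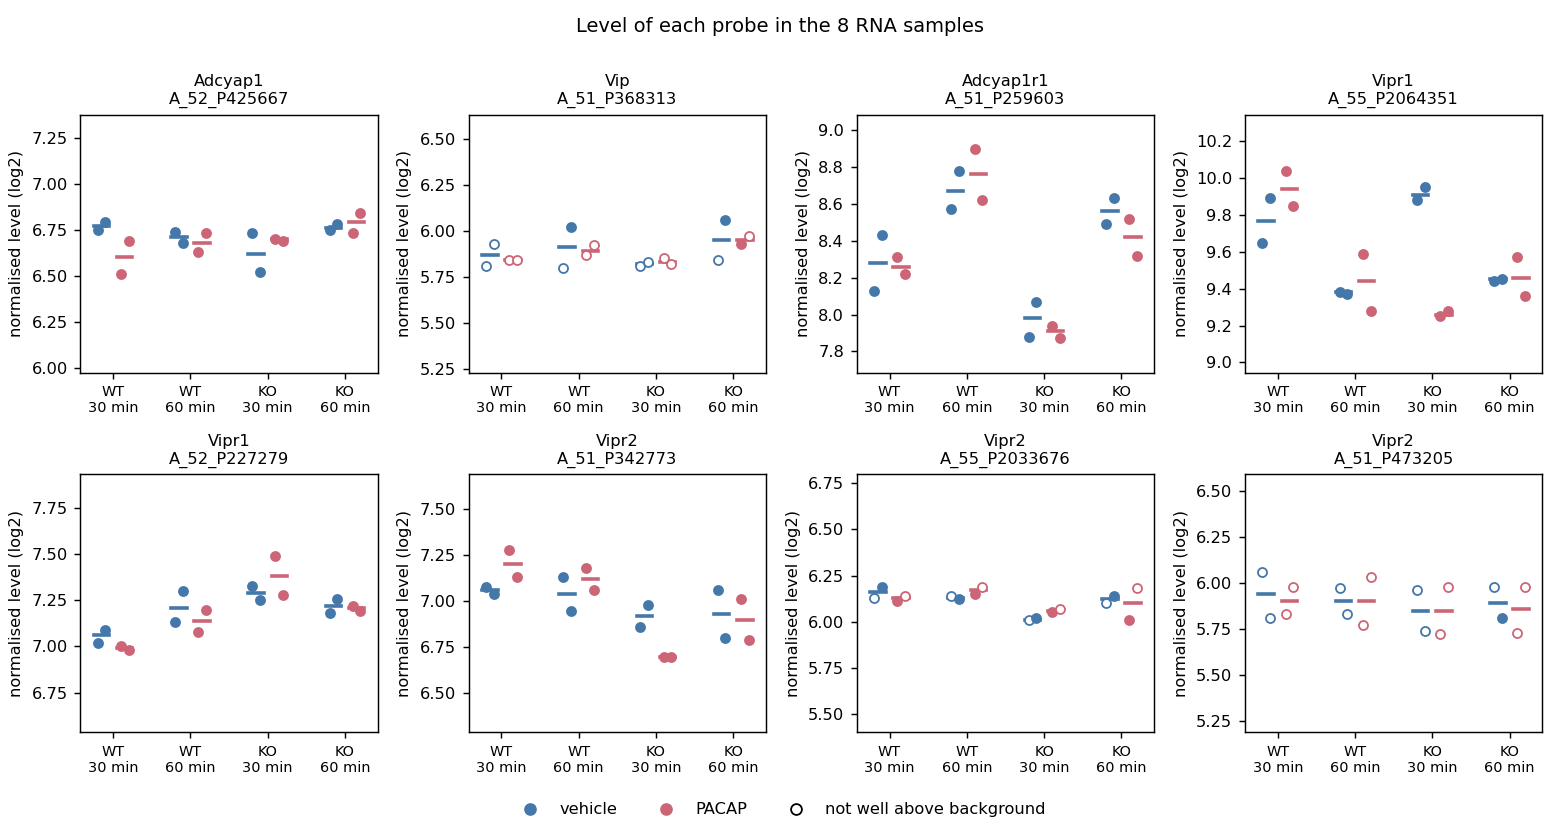
Normalised log2 level (y axis) of each of the 8 probes in the 4 combinations of genotype and time (x axis), with vehicle in blue and PACAP in red. Points are the 2 dye readings of an RNA sample, bars their mean, and open points readings not well above background; every panel spans the same log2 range, and the Adcyap1r1 readings at 60 min sit above those at 30 min within each genotype.

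Adcyap1r1, the gene targeted in the KO mice, gave clear signal in every KO sample. Its normalised log2 level in WT skin was 8.28 with vehicle and 8.26 with PACAP at 30 min, and 8.67 and 8.76 at 60 min. In KO skin it was 7.98 with vehicle and 7.91 with PACAP at 30 min, and 8.56 and 8.42 at 60 min. The 4 samples at 60 min (8.42 to 8.76) lay above the 4 at 30 min (7.91 to 8.28), while the WT (8.26 to 8.76) and KO (7.91 to 8.56) ranges overlapped. Within each time, both KO samples lay below both WT samples. How many of all probes separate by time or genotype in these ways was not counted.

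In the limma fit with the hybridised pair as a random block, the Adcyap1r1 level was higher at 60 than at 30 min by 0.50 ± 0.05 on the log2 scale (SE, 4 against 4 samples, adjusted p = 0.0121). The KO level was lower than the WT level by a log2 difference of -0.28 ± 0.05 (SE, 4 against 4, adjusted p = 0.0492). That fit called 10.7% of 35368 probes for time and 5.36% for genotype. On simulated data it made more false calls than its threshold allows, and it estimated a correlation within pairs below the simulated one. With each pair averaged to 1 value, a fit that kept to its threshold on the same simulated data, limma gave the same Adcyap1r1 differences with adjusted p = 0.228 for time and adjusted p = 0.394 for genotype, and called 0% of probes for time and 0% for genotype. At an unadjusted p under 0.05 that second fit had 6254 probes for time and 4455 for genotype. It left 1 residual degree of freedom, against 4 in the first fit, so its lack of calls is weak evidence of no difference. The Adcyap1r1 differences are therefore given as measured sizes whose calls rest on the first fit.

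**Figure D2:**
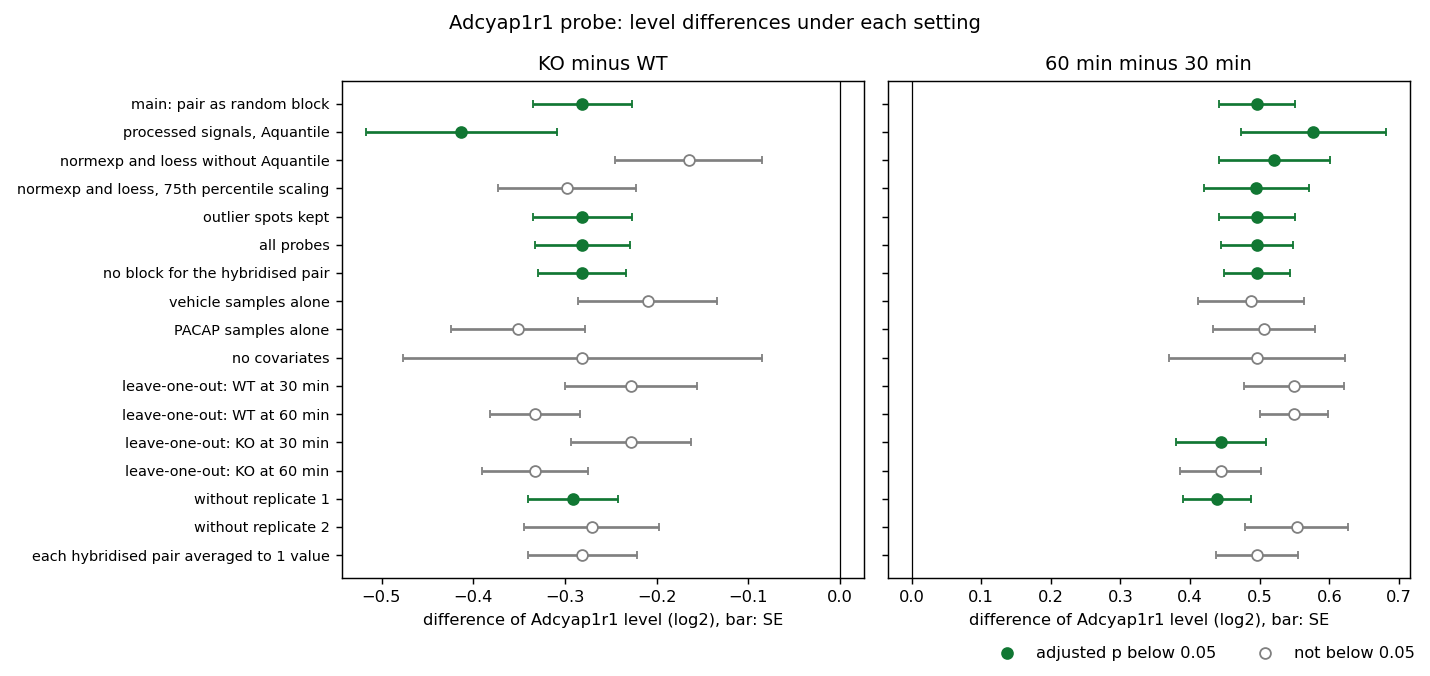
Difference in Adcyap1r1 level (x axis, log2, bars ± SE), KO minus WT on the left and 60 minus 30 min on the right, under each processing setting (rows). Filled green points had an adjusted p below 0.05; the genotype difference stayed between -0.41 and -0.17 and the time difference between 0.44 and 0.58, with adjusted p on both sides of the threshold in each.

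PACAP injection left the Adcyap1r1 ratio close to 1. In WT skin the log2 ratio of PACAP over vehicle was 0.05 and -0.07 on the arrays at 30 min, and 0.13 and -0.17 at 60 min. In KO skin it was -0.11 and -0.22 at 30 min, and -0.02 and -0.20 at 60 min. All 4 KO values were below 0 and the WT values had both signs, but the KO minus WT response was -0.12 ± 0.19 (SE, 2 against 2 comparisons, limma adjusted p = 0.874).

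Of the ligands, Adcyap1 was measurable. Its log2 level in WT skin was 6.77 with vehicle and 6.60 with PACAP at 30 min, and 6.71 and 6.68 at 60 min. In KO skin it was 6.62 and 6.70 at 30 min, and 6.76 and 6.79 at 60 min. The 8 samples spanned 0.19, and only 1 of 7 neighbours in their order had dye readings that did not overlap. The KO minus WT difference was 0.03 ± 0.06 (SE, limma adjusted p = 0.793) and the 60 minus 30 min difference was 0.06 ± 0.06 (SE, limma adjusted p = 0.515). Without Aquantile, the scaling between arrays, they were 0.19 (limma adjusted p = 0.119) and 0.17 (limma adjusted p = 0.169). The median difference over all probes was then 0.109 for genotype and 0.055 for time, so part of this change was shared by all probes. The offset of 50 in these levels narrows differences of a dim probe.

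The array pairs disagreed on the Adcyap1 response to PACAP. At 30 min in WT skin the log2 ratio was -0.88 on array 1 and -0.12 on array 2, and the scanner software's p for the spot was not below 0.01 on either. WT skin at 60 min gave -0.49 and 0.13, KO skin at 30 min gave -0.12 and 0.49, and KO skin at 60 min gave -0.12 and 0.00. Array 1 gave the lower value in each comparison. That software p describes 1 spot on 1 array and measures no spread between animals.

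Vip, the neuropeptide of cholinergic sweat gland fibres, stayed near background. Its readings ran from 5.80 to 6.06 on the log2 scale over all samples and dyes, and the scanner software formed no ratio on 7 of 8 arrays. A change in Vip was not detectable at this signal.

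The promoter windows of both ligands hold the letters TGACGTC, part of the cyclic AMP response element through which PACAP signalling is known to act on transcription. The windows below, from RefSeq promoters in GRCm38.p6 on the plus strand, have those letters in capitals and are shown because both ligand genes share them. The Vip probe, with its ratio set to 0 on 7 of 8 arrays, could not have passed the call rule, so its promoter is set beside no measured response.
Adcyap1, chr17:93198915-93198944: gactaggatgcTGACGTCttttactgatac
Vip, chr10:5639128-5639157: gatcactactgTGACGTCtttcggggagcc
RefSeq gives Adcyap1 2 promoters, which overlap and hold this same site, 91 bases before the first start and 242 before the second. In the Vip promoter the letters begin 79 bases before the start. Searched on both strands, 3.21% of 32851 promoters hold them, and none of the promoters of Adcyap1r1, Vipr1 and Vipr2 does within 250 bases before to 50 after the start. The full palindrome TGACGTCA was in no member promoter and in 1.79% of all. A match of letters is a description of the window only.

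Vipr1, which encodes VPAC1, showed the clearest PACAP difference among the members, at 30 min in KO skin and with 1 of its 2 probes. The level of Vipr1 A_55_P2064351 in KO skin at 30 min was 9.91 with vehicle and 9.26 with PACAP. KO skin at 60 min read 9.45 and 9.46. WT skin read 9.77 and 9.94 at 30 min, then 9.38 and 9.44 at 60 min. PACAP-injected KO skin at 30 min was the lowest of the 8 samples and vehicle-injected KO skin at 30 min the second highest. The ratios on the array pair were -0.83 and -0.73, both with a software p below 0.01, and their mean was 0.584-fold, short of the 0.5-fold that the call rule asks for. The array values elsewhere were 0.29 and 0.13 (WT skin, 30 min), -0.02 and -0.08 (WT skin, 60 min), and 0.11 and 0.06 (KO skin, 60 min). None of these had a software p below 0.01.

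The other Vipr1 probe did not share this difference. Vipr1 A_52_P227279 read 7.29 with vehicle and 7.38 with PACAP in KO skin at 30 min, and its array ratios there were 0.07 and 0.00. WT skin read 7.06 and 6.99 at 30 min, then 7.21 and 7.14 at 60 min, and KO skin read 7.22 and 7.21 at 60 min. The difference between the probes was not tested.

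Vipr2, which encodes VPAC2, was read above background in both dyes by 1 of its 3 probes, and that probe had opposite signs in the genotypes at 30 min. This probe, Vipr2 A_51_P342773, read 7.06 with vehicle and 7.20 with PACAP in WT skin at 30 min, then 7.04 and 7.12 at 60 min. KO skin read 6.92 with vehicle and 6.70 with PACAP at 30 min, then 6.93 and 6.90 at 60 min. All 4 WT samples (7.04 to 7.20) lay above all 4 KO samples (6.70 to 6.93). That level difference was -0.25 ± 0.08 (SE, KO minus WT, limma adjusted p = 0.13) and did not pass. It was -0.48 with processed signals (limma adjusted p = 0.107) and -0.09 without Aquantile (limma adjusted p = 0.569), where the median over all probes was 0.109. The other Vipr2 probes also had all WT above all KO samples. Ranges were 6.13 to 6.17 against 6.01 to 6.12 for A_55_P2033676. They were 5.90 to 5.94 against 5.85 to 5.89 for A_51_P473205, which passed background in 1 of 16 readings. How many of all probes separate by genotype in this way was not counted, and genotype cannot be told apart from slide.

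WT skin gave Vipr2 A_51_P342773 array ratios of 0.37 and 0.28 at 30 min, then 0.04 and 0.28 at 60 min, none with a software p below 0.01. KO skin gave -0.39 and -0.73 at 30 min, the software p being below 0.01 on array 2 alone, then -0.15 and 0.00 at 60 min. The KO minus WT response over both times was -0.56 ± 0.24 (SE, 2 against 2 comparisons, limma adjusted p = 0.839). For Vipr1 A_55_P2064351 it was -0.43 ± 0.32 (SE, limma adjusted p = 0.839), and for Adcyap1 0.41 ± 0.22 (SE, limma adjusted p = 0.839). Without the KO pair at 30 min the Vipr1 difference was 0.00 and the Vipr2 difference -0.32, and with normexp and loess ratios, which add an offset of 50 to every signal, the Vipr2 difference was -0.23 and the Adcyap1 difference 0.145. The dimmer Vipr2 A_55_P2033676 ranged from 6.01 to 6.17 in level, and its signs at 30 min were the reverse, with a mean log2 ratio of -0.40 for WT skin (array values -0.79 and 0.00, the latter where the software set the ratio to 0) and 0.17 for KO skin (0.44 and -0.09). Its array ratios at 60 min were 0.68 and -0.80 for WT skin and 0.48 and -1.51 for KO skin, of opposite signs in each pair. Every ratio of this probe had a green reading that was not well above background, so its sizes are uncertain. With normexp and loess ratios its means at 30 min were -0.03 for WT skin and 0.04 for KO skin, and its mean at 60 min in KO skin went from -0.52 to -0.02.

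**Figure D3:**
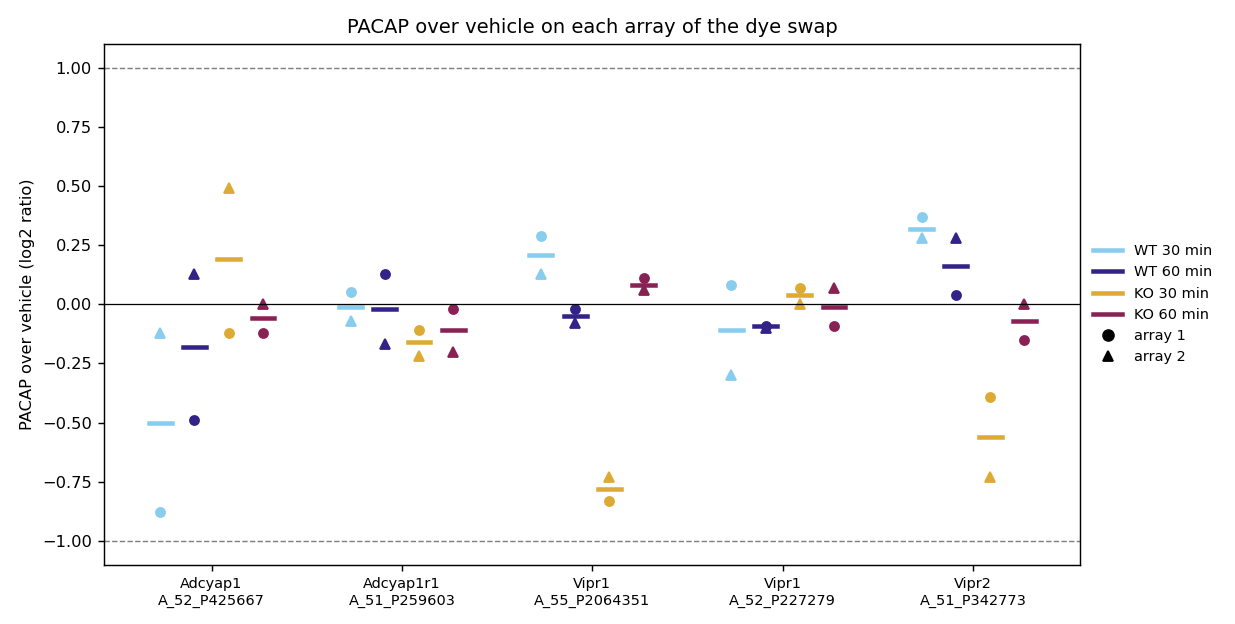
Log2 ratio of PACAP over vehicle (y axis) for the 5 probes well above background in all readings (x axis), coloured by genotype and time. Circles and triangles are the arrays of the dye swap, bars their mean, and dashed lines mark the fold thresholds of 2.0 and 0.5; every value lies between the dashed lines, and the KO values at 30 min are the lowest for Vipr1 A_55_P2064351 and Vipr2.

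By the call rule (a mean of at least 2.0-fold or at most 0.5-fold, one direction, and software p below 0.01 on both arrays), 0 of the 8 member probes were called in any comparison. Vip and Vipr2 A_51_P473205, with ratios set to 0 on 7 and 8 of the 8 arrays, could not have been called. Over all probes the rule called 0.35% (30 min) and 0.692% (60 min) for WT skin, and 0.708% (30 min) and 0.292% (60 min) for KO skin, so 0 of 8 is near the background. In the mean of the 4 comparisons, limma called 0% of 30357 probes (679 at an unadjusted p under 0.05), and member differences ran from -0.20 for Vipr2 A_55_P2033676 to -0.04 for Vipr2 A_51_P342773. For the KO minus WT response it called 0% (972 at an unadjusted p under 0.05).

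Skeletal muscle markers had the same signs at 30 min as Vipr1 A_55_P2064351 and Vipr2 A_51_P342773. The mean ratios of Vipr1 A_52_P227279 had the opposite signs, at -0.11 for WT skin and 0.04 for KO skin. Its WT arrays differed in sign (0.08 and -0.30), so that contrast depends on the array used. For the 8 skeletal muscle markers, the log2 ratio had its median at 0.82 (30 min) and -0.07 (60 min) for WT skin, and at -0.97 (30 min) and 0.03 (60 min) for KO skin. At 30 min, WT skin had 8 of these markers above 0 and KO skin had 7 of them below 0. Their summed level at 30 min was 73982 with vehicle and 143599 with PACAP in WT skin, against 115377 with vehicle and 64764 with PACAP in KO skin. Over the 8 samples it ran from 64764 to 143599, and none was at background. Medians at 30 min (WT skin, then KO skin) also went from above to below 0 for 7 keratinocyte markers (0.11, -0.78), 5 smooth muscle markers (0.12, -0.48), 8 Schwann cell markers (0.19, -0.32) and 5 endothelial markers (0.21, -0.23). They were below 0 in both genotypes for 11 eccrine gland markers (-0.16, -0.42) and 5 adipocyte markers (-0.15, -0.11). They were above 0 in both for 7 neutrophil markers (0.74, 1.54), 7 hair follicle markers (0.92, 1.33) and 8 macrophage and mast cell markers (0.26, 0.23). The order was the other way round for 8 T cell markers (-0.26, 0.27) and 5 hepatocyte markers (-0.38, 0.39). None of these markers' part in the Vipr1 and Vipr2 values was tested.

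**Figure D4:**
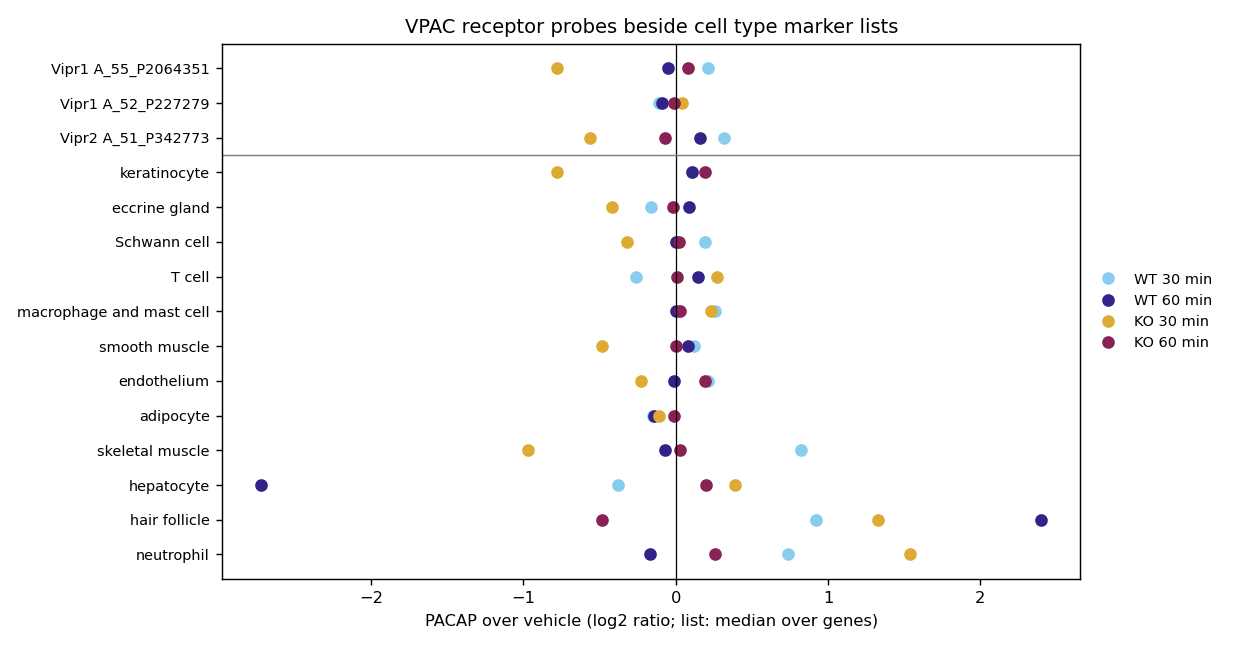
Log2 ratio of PACAP over vehicle (x axis) for 3 VPAC receptor probes, above the grey line, and as the median over each cell type marker list, below it, coloured by genotype and time. At 30 min the skeletal muscle median is 0.82 for WT skin and -0.97 for KO skin, the same signs as Vipr1 A_55_P2064351 and Vipr2 A_51_P342773.

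Genes that act with these receptors were read from 6 lists, with medians taken over the brightest probe of each gene. None of their probes passed the call rule in any comparison. In KO skin at 30 min, 24 of 25 genes of Gs and cyclic AMP transduction were below 0 with a median of -0.30, and 12 of 14 genes of Gq, phospholipase C and calcium release were below 0 with a median of -0.34, against -0.01 for all probes above background. In WT at 30 min the Gs and Gq medians were 0.07 and 0.18, against -0.05 for all such probes. These all-probe medians cover every probe, not the brightest of each gene, and the share of all probes below 0 was not counted. Of the marker lists in KO skin at 30 min, 7 of 7 keratinocyte, 8 of 8 Schwann cell, 10 of 11 eccrine gland and 5 of 5 smooth muscle markers were also below 0. Above 0 were 8 of 8 T cell, 7 of 7 hair follicle and 6 of 7 neutrophil markers. At 60 min, for KO skin, 19 of 25 Gs genes and 13 of 14 Gq genes were above 0 (medians 0.10 and 0.16), and for WT skin 13 of 25 Gs genes were above 0 (median 0.01) and 11 of 14 Gq genes below 0 (median -0.15). The other secretin-family ligands, receptors and RAMPs had a median of 0.29 in KO at 30 min, with 9 of 12 above 0, against medians of -0.05 (WT skin, 30 min), -0.10 (WT skin, 60 min) and -0.02 (KO skin, 60 min). Over the 4 comparisons, medians ran from -0.11 to 0.03 for 8 peptide processing genes, from -0.11 to 0.19 for 13 other neuropeptide and transmitter genes and from -0.08 to 0.06 for 8 nerve fibre genes.

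The calls in these lists came from the level fit with the pair as a block, and none passed with pairs averaged. By the brightest probe of each gene, 11 of 86 list genes (12.8%) were called for time, 7 higher and 4 lower, and 3 of 86 (3.49%) for genotype, all higher, against 10.7% and 5.36% of all probes. The first share is near the background and the second under it, and the genes below are named whichever of their probes passed. At 60 against 30 min, limma log2 differences were 0.46 for Ghrh (growth hormone-releasing hormone), 0.35 for its receptor Ghrhr and 0.24 for Ramp2 (a receptor activity-modifying protein), with adjusted p from 0.0424 to 0.0474. Ramp1 passed with 2 of 3 probes, at 0.19 and 0.27. Of the signalling genes, Plcg1 (phospholipase C gamma) differed by 0.59 with 1 of 3 probes and Plcb2 by 0.16 with 1 of 2, whereas Gnaq (the Gq alpha subunit) differed by -0.47 with its only probe, Plcb4 by -0.47 with 1 of 4, Adcy5 by -0.24 and -0.27 with 2 of 3 probes, and Adcy8 by -0.14. Cpe (carboxypeptidase E, a prohormone-processing enzyme) differed by 0.47 with 1 of 3 probes and Mme (neprilysin, which degrades peptides) by 0.24 with 1 of 2. Read by 1 probe each, Npy1r (a neuropeptide Y receptor) differed by 0.51, Sst (somatostatin) by 0.26 and Snap25 (a synaptic vesicle fusion protein) by -0.56. In KO against WT skin, Glp2r differed by 0.46 with 1 of 2 probes, Ramp1 by 0.24 with 1 of 3, Plcb2 by 0.23 with 1 of 2 and Stmn2 (a neuronal growth protein) by 0.51 with its only probe.

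Level patterns most like those of the members were sought over the 8 RNA samples among 30379 probes above background in all of them, as a description. Pearson's r with Adcyap1r1 was 0.996 for Creg1, 0.988 for Dnajc11 and 0.986 for Snx10. With Vipr1 A_55_P2064351 it was 0.983 for Dnajc14, 0.982 for Tecpr1 and 0.977 for Pld2. With Vipr2 A_51_P342773 it was 0.992 for Gosr1, 0.986 for Pmpca and 0.986 for Sephs1. With Adcyap1 it was 0.960 for A_55_P1974228, a probe without a gene symbol, 0.955 for Phlda2 and 0.955 for Nova1. The samples of a pair share their arrays. Each r was picked as one of the highest among 30379 probes, and the r of a typical probe was not computed, so these values show no shared regulation.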

How the data were processed

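Total RNA from palm skin was labelled with Cy3 and Cy5 and hybridised to Agilent whole mouse genome arrays, with 1 dye swap per comparison. The authors deposited scanner files with spot intensity and log10 ratio per spot from Agilent Feature Extraction, with LOWESS dye normalisation; the version is 11.0.1.1 per the submitters' processing notes, and other versions stand in the file headers and the methods. The deposited value table holds the log10 ratio of processed red over green. Per the file headers, each spot also has a p-value and flags for outliers and background.

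Here control and outlier spots were left out, log10 ratios were converted to log2, set in the direction of PACAP over vehicle and then averaged across the arrays of a pair. A ratio that the software set to 0 stayed 0. Levels came from intensity by normexp (offset 50), loess and Aquantile in limma 3.58.1 (R 4.3.3). Ratio fits used 30357 probes well above background in at least 1 dye on every array. Level fits used 35368 probes well above background in at least 1 reading of at least 4 of the 8 RNA samples. Vipr2 A_55_P2033676 entered both, although 0 of its green readings passed. Benjamini-Hochberg adjustment was over all probes of a fit. The fits were tested on simulated data. The ratio fits kept to their threshold, but the level fit with the pair as a random block (estimated correlation 0.173) did not, in either of 2 simulations, and a fit on pair averages, chosen after seeing the data, was added for that reason. The precision is limited by the 4 RNA pairs, since the 2 arrays of a pair repeat the same RNA. The members, gene lists and tests were chosen with earlier results of these data known. Named were all member probes, pathway genes past the call rule or a limma fit, and the 3 probes most like the brightest probe of each member that was above background in all 8 RNA samples; markers were given as lists. Alternatives covered background correction, normalisation, filters, outliers, block, covariates and leaving out a pair or 1 dye orientation.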

Additional observations from a re-analysis of the deposited data

Results flagged for a closer look

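Vipr1 A_55_P2064351 had both arrays above 0 in WT and both below 0 in KO skin at 30 min, a gap in log2 ratio of 0.98 (WT minus KO), and both below 0 in WT and above 0 in KO at 60 min, a gap of -0.13. With normexp and loess ratios the 30 min gap was 0.83, whereas at 60 min WT was 0.06 and KO 0.02, both above 0. Within a genotype its arrays also changed sign between the times, with a gap (30 minus 60 min) of 0.26 in WT and -0.86 in KO; with normexp and loess ratios the WT values were 0.18 and 0.06, without a sign change, and the KO gap was -0.67. Vipr2 A_51_P342773 had both arrays above 0 in WT and both below 0 in KO at 30 min, a gap of 0.88, which was 0.36 with normexp and loess ratios (0.14 in WT, -0.22 in KO). These single differences were not tested, since each side is 1 RNA pair read on 2 arrays; the KO minus WT response over both times, which limma did test, passed for neither probe (adjusted p = 0.839 for each).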

How the results depend on the processing

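No member probe passed the call rule in any comparison under any alternative run. No paired analysis was possible because the shared numbers of the arrays name the dye orientation of 1 RNA pair; the pairing of PACAP with vehicle RNA is already in every ratio and in the block of the level fit. With pairs averaged to 1 value, chosen after seeing the data, limma called 0 probes for genotype and 0 for time, and the Adcyap1r1 differences were -0.28 (adjusted p = 0.394) and 0.50 (adjusted p = 0.228). In the block fit, calls for KO minus WT went from 1894 to 3679 with processed signals, 6419 without Aquantile (which shifted the median of all probes by 0.11), 0 with 75th percentile scaling, 3798 without the pair block, 0 with vehicle samples alone, 0 with PACAP samples alone and 0 without covariates. For 60 minus 30 min they went from 3772 to 1369 with 75th percentile scaling, 6054 without the block, 0 with vehicle samples alone, 0 with PACAP samples alone and 83 without covariates. Leaving out a pair or 1 dye orientation (1 array of every pair) gave 0 to 3509 calls for genotype and 0 to 11706 for time; with a pair left out no block could be fitted. For the mean PACAP ratio, leaving out gave 0 to 2318 calls, the highest with only 1 dye orientation kept, and for the KO minus WT response 0 to 170; the time covariate gave 17 calls there.

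The Adcyap1r1 genotype difference lost its call without Aquantile (-0.17), with 75th percentile scaling (-0.30), with vehicle samples alone (-0.21), with PACAP samples alone (-0.35) and without covariates (-0.28), and ran from -0.33 to -0.23 when a pair or dye orientation was left out (adjusted p from 0.0468 to 0.25). The time difference lost its call with vehicle samples alone (0.49), PACAP samples alone (0.51) and without covariates (0.50), and ran from 0.44 to 0.55 in the same way (adjusted p from 0.00398 to 0.119). For each the cause was not tested.

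3 differences that were not called gained a call: Vipr1 A_52_P227279, KO minus WT, without Aquantile (0.33, limma adjusted p = 0.0207), and, without the KO pair at 30 min, the 60 minus 30 min differences of Vipr1 A_55_P2064351 (-0.45, limma adjusted p = 0.0134) and Vipr1 A_52_P227279 (0.15, limma adjusted p = 0.0354). Beyond the arrays of a pair that differ in sign, single comparisons changed sign with normexp and loess ratios for Adcyap1r1 (-0.02 to 0.09), Vipr1 A_55_P2064351 (-0.05 to 0.06) and Vipr2 A_55_P2033676 (-0.06 to 0.04) in WT at 60 min and Adcyap1 (-0.06 to 0.02) in KO at 60 min, and with median-centred arrays for Adcyap1r1 (-0.01 to 0.01) in WT at 30 min. Fitted differences that were not called changed sign as follows. For the mean PACAP ratio, leaving out gave -0.41 to 0.13 for Adcyap1, -0.164 to 0.013 for Adcyap1r1, -0.247 to 0.081 for Vipr1 A_55_P2064351, -0.16 to 0.14 for Vipr2 A_51_P342773 and -0.80 to 0.40 for Vipr2 A_55_P2033676, the last also 0.006 with normexp and loess ratios. Its KO minus WT response ran from -0.29 to 0.40. The responses of Vipr1 A_55_P2064351 (-0.86 without KO at 60 min to 0.00 without KO at 30 min), Vipr2 A_51_P342773 (-0.80 to -0.32, from the same omissions; -0.23 with normexp) and Adcyap1 (0.24 without array 1 of every pair to 0.57 without array 2; 0.145 with normexp) moved in size. For the KO minus WT level, Adcyap1 gave -0.045 with vehicle samples alone and -0.024 to 0.079 on leaving out; Vipr1 A_55_P2064351 gave 0.031 without Aquantile, 0.108 with vehicle samples alone and -0.267 to 0.048 on leaving out; Vipr2 A_55_P2033676 gave 0.02 without Aquantile. For 60 minus 30 min, Vipr1 A_52_P227279 gave -0.015 with PACAP samples alone and -0.12 to 0.15 on leaving out, Vipr2 A_51_P342773 gave -0.005 with vehicle samples alone and -0.065 to 0.117 on leaving out, and Vipr2 A_55_P2033676 gave -0.05 with processed signals.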
